A study of Mus musculus with 17 samples.

Results

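Oxidative phosphorylation subunits are the proteins of the 5 enzyme complexes of the inner mitochondrial membrane that oxidise NADH and succinate, pump protons and make ATP. Members were taken by gene name: the Ndufa, Ndufb, Ndufc, Ndufs and Ndufv genes of complex I (NADH dehydrogenase), Sdha to Sdhd of complex II (succinate dehydrogenase), the Uqcr genes of complex III (the cytochrome bc1 complex), the Cox5, Cox6, Cox7 and Cox8 genes of complex IV (cytochrome c oxidase) and the Atp5 genes of complex V (ATP synthase), without names ending in -ps and a digit. The rule found 83 of 38734 genes, all encoded in the nucleus: 37 in complex I, 4 in complex II, 8 in complex III, 16 in complex IV and 18 in complex V. Names are those of the deposited table. Atp5sl (Dmac2 in current annotation, a complex I assembly factor) and Atp5s carry an Atp5 name without being core parts of the ATP synthase, Ndufa4 is now assigned to complex IV, and Atp5l2 is annotated as a pseudogene in GENCODE M21.

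The study reprogrammed mouse embryonic fibroblasts (MEF) to induced pluripotent stem cells (iPSC) with the doxycycline-inducible OSKM cassette (Oct4, Sox2, Klf4 and cMyc), asking what miR-203, a microRNA of differentiating epithelium, does to the process. The 17 RNA-seq libraries came from 3 genotypes: miR-203 WT with OSKM (WT), miR-203 KO with OSKM (KO), and ColA1_miR203 with Rosa26rtTA and OSKM (KI), in which doxycycline at 1 ug/ml switches on miR-203 together with OSKM. Each genotype had 1 library at each of MEF, day 0, day 4, day 6 and day 7, and WT and KO also had 1 iPSC library. All samples, the MEF ones included, are labelled as doxycycline-treated for 2 weeks, and no label says that libraries came from separate embryos or cultures. Values are the authors' FPKM (fragments mapped to a transcript, scaled to its length and to the mapped total of the library), so levels can be compared between genes per length; the depth of the libraries is unknown.

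Cells in culture can draw ATP from glycolysis or from oxidative phosphorylation. Fibroblasts rely on mitochondria to a large degree, and reprogramming is known for a shift toward glycolysis together with a rebuilding of the mitochondria. The nuclear subunit genes are controlled together in part by NRF1 (nuclear respiratory factor 1), GABPA (an ETS factor, also called NRF-2) and YY1. A small group of subunits has tissue isoforms: Cox6b2, Cox7b2 and Cox8c in testis, Cox6a2, Cox7a1 and Cox8b in heart and muscle, and Ndufa4l2, a paralog of Ndufa4 induced by hypoxia.

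The mature miR-203-3p (mmu-miR-203-3p, chr12:112130927-112130948, plus strand, RefSeq on GRCm38.p6) is shown because it is the molecule the genotypes differ in, with its seed (bases 2 to 8) in capitals, and beneath it are the seed matches in the longest annotated 3′ UTR of the 6 members that have one, with the match CATTTCA in capitals.
mmu-miR-203-3p: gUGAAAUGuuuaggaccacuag
Ndufb2: caaggtgagaCATTTCAagaaattaca
Ndufb8: gaaagtaaggCATTTCAagcgatggaa
Ndufv1: tctgatccgaCATTTCAggccagagct
Sdhd: tgagactgaaCATTTCAtgagctcatg
Atp5g3: tttccacagtCATTTCAttaaagatga
Atp5j: aataaacattCATTTCAcagttatcaa
The letters CATTTCA occurred in the 3′ UTR of 6 of 78 members (7.69%), and in 18.0% of 12242 genes with a 3′ UTR in the same annotation. The 78 are the members with a mean of at least 1 FPKM over the 17 libraries, and the other members are not in this count. The members' 3′ UTRs were short, with a median of 268 bases against 1346.5 bases for all those genes. A match of these letters is a description and not a shown target site.

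The promoters of 69 of the 83 members matched a RefSeq promoter (GRCm38.p6, 250 bases before to 50 after a start), and 4 of them are printed to show how motif content ranges among members described below. Capitals mark the motifs searched on both strands: CGCATGCG (NRF1), CCGGAAG (GABPA) and AAGATGGC (YY1). The Uqcrc1 promoter is chr9:108936398-108936697 (plus strand), Atp5j chr16:84834927-84835226 (minus), Ndufs6 chr13:73328433-73328732 (minus) and Cox6b2 chr7:4753045-4753344 (minus).
Uqcrc1: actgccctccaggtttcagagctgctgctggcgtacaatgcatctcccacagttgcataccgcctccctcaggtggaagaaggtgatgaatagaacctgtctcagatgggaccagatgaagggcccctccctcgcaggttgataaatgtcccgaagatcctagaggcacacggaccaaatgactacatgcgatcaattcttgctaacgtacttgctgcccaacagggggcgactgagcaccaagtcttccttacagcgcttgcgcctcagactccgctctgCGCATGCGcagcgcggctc
Atp5j: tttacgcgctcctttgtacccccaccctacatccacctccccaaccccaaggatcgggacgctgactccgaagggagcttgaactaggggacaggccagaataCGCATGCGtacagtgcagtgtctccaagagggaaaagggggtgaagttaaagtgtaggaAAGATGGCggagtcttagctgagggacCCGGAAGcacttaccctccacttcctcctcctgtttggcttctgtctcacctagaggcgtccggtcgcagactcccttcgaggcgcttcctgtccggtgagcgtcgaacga
Ndufs6: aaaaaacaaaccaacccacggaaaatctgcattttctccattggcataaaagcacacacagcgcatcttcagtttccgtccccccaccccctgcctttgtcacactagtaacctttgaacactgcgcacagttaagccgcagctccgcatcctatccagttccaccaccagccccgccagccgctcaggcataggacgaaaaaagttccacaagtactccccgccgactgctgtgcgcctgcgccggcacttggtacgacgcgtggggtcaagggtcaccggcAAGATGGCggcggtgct
Cox6b2: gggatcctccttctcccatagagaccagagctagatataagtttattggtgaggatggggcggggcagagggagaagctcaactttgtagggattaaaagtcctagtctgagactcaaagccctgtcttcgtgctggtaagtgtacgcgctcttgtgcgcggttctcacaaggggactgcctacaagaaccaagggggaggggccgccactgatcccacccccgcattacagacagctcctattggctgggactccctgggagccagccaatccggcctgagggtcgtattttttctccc
The Atp5j window held all 3 motifs, Uqcrc1 the NRF1 letters, Ndufs6 the YY1 letters, and Cox6b2, the testis isoform, none. A second Atp5j start in the RefSeq table (chr16:84835576-84835875, minus strand) held none of the 3. The NRF1 letters were in 9 member promoters (13.04%), against 2.07% of 27025 genes with a promoter and 4.32% of the 9561 such genes that passed the expression filter. The YY1 letters were in 11 (15.9%, against 3.19% and 5.17%), and all 11 belonged to complexes I and V. The GABPA letters were in 16 (23.2%, against 9.93% of all and 19.8% of the expressed genes). The median number of CpG in the window was 19 for members, 22 for expressed genes and 8 for all genes.

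Several features of the libraries bear on every value below. Of the 6 fibroblast markers (Col1a1, Col1a2, Col3a1, Thy1, Pdgfrb and Vim) all were present in MEF, and of the 6 pluripotency markers (Pou5f1, Nanog, Zfp42, Esrrb, Dppa5a and Utf1) all were present in both iPSC libraries. Pou5f1, a gene of the OSKM cassette, was at 266, 37.4 and 85.3 FPKM in WT and at 255, 852 and 954 FPKM in KO at days 4, 6 and 7, but at 0.851, 0.491 and 0.675 FPKM in KI, so the KI libraries of those days held almost no RNA of this factor. The WT library of day 4 stood apart: it held 48.0 FPKM of the X-inactivation RNA Xist and 2.74 FPKM of the Y-linked gene Ddx3y, whereas the WT libraries of days 6 and 7 held 0.581 and 3.23 FPKM of Xist and 19.6 and 16.6 FPKM of Ddx3y. The WT MEF library held 46.9 FPKM of Xist and 0.0179 FPKM of Ddx3y and the WT iPSC library 1.31 and 1.51 FPKM, while Ddx3y was at 14.5 to 20.0 FPKM in every other library, so the WT libraries were not all from cells of the same sex. In bulk RNA, fewer cells of a type and less RNA per cell cannot be told apart.

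In MEF and at day 0 the subunits were abundant and differed little between the 3 genotypes, with most slightly lower in KI than in WT. Together the 83 genes took 2.24%, 2.23% and 2.14% of all FPKM in WT, KO and KI MEF, and 2.21%, 2.18% and 2.03% at day 0. In KI minus WT over these stages, 7 of 77 members lay above 0 (9.09%), against 45.3% of all genes. The median was -0.13 (log2) for members and -0.015 for all genes, in a comparison added after the data were seen. The median complex I gene was at 72.9 FPKM in WT MEF, against 155 FPKM for complex II, 168 FPKM for complex III, 220 FPKM for complex IV and 215 FPKM for complex V. Atp5b, the catalytic beta subunit of the ATP synthase, was the most abundant member, with 1183, 1027 and 1010 FPKM in WT, KO and KI MEF. At the low end, 5 members did not reach a mean of 1 FPKM over the 17 libraries and were not tested across stages: the muscle isoforms Cox6a2 (at most 1.16 FPKM) and Cox8b (at most 1.01 FPKM), the testis isoform Cox8c (listed at 0 before iPSC, then 0.6 and 3.25 FPKM in WT and KO iPSC), Ndufa4l2 (at most 7.17 FPKM) and Atp5l2 (at most 0.606 FPKM). Cox7b2 passed through its iPSC values alone and fell below the filter in the 15 libraries before iPSC. From MEF to day 0 no member was called (limma on log2(FPKM + 1) over 17 libraries with stage and genotype as terms, Benjamini-Hochberg over 14240 genes, called at an adjusted p below 0.05), and 1 of 78 had an unadjusted p below that threshold. Of all genes, 0.0492% were called in this comparison, and 688 of 14240 had an unadjusted p below the threshold.

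**Figure D1:**
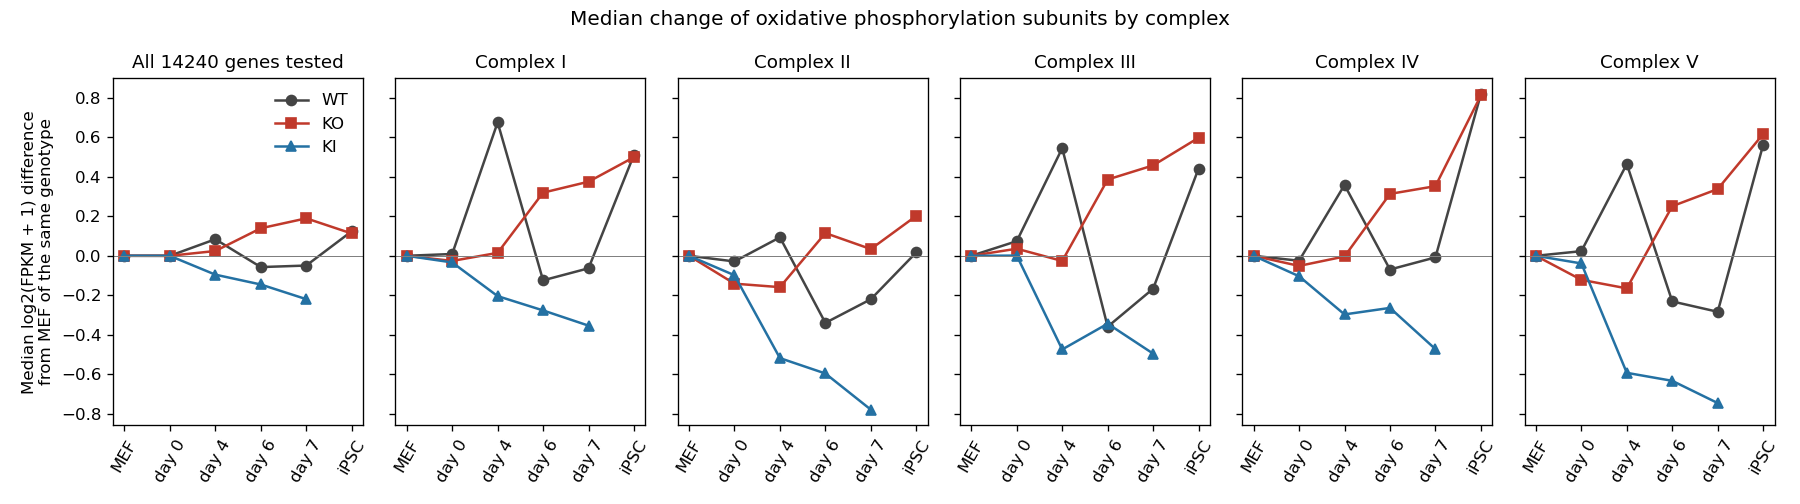
Median difference in log2(FPKM + 1) from the MEF library of the same genotype (vertical axis) by stage (horizontal axis), for all 14240 genes tested and for the tested members of each complex; each point is 1 library. In KO the medians of complexes I, III, IV and V lie between 0.25 and 0.46 at days 6 and 7, in KI all 5 lie below 0 from day 4 on, and the WT line before iPSC is highest at day 4.

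From day 0 to day 4 a few subunits rose and, over all libraries, the rest showed no common direction. Without the WT library of day 4 most members were lower at day 4. The largest change of any member was that of Cox6b2, the testis isoform of a complex IV subunit whose somatic form is Cox6b1. Its level was 7.51, 22.0 and 10.9 FPKM in WT, KO and KI at day 0 and 174, 176 and 131 FPKM at day 4. All 3 day 4 values lay far above the day 0 ones, a difference of 3.60 ± 0.28 (log2, SE; limma adjusted p = 1.35e-05). Among the others called were Ndufv3, an accessory subunit of the NADH-binding arm (0.94 ± 0.19 log2, limma adjusted p = 0.00462), Atp5e, the small epsilon subunit of the ATP synthase (0.94 ± 0.27, limma adjusted p = 0.0281), Ndufa6 (0.50 ± 0.14, limma adjusted p = 0.025) and Ndufa13 (0.57 ± 0.18, limma adjusted p = 0.047). In all, 5 of 78 members were called higher, where 12.3% of all genes were, and 0 were called lower, where 10% were. Without the WT library of day 4, Cox6b2 (3.44), Ndufv3 (0.73) and Atp5e (0.51) were still called higher, and Atp5b was called lower by 0.88 ± 0.27 (limma adjusted p = 0.0481); 10.3% of all genes were then called higher and 7.97% lower. In that fit 14 of 78 members changed upward (17.9%), against 47.5% of all genes. The median change was -0.18 (log2) for members and -0.04 for all genes. With WT MEF, WT day 4 and WT iPSC all left out, 2 members were called higher and 0 lower, where 9.42% of all genes were called higher.

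The rise of Cox6b2 came on top of Cox6b1, which stayed at 313 to 678 FPKM in all libraries. Cox6b2 made up 1.44%, 3.89% and 2.26% of the pair's FPKM in WT, KO and KI at day 0 and 20.4%, 29.1% and 26.6% at day 4. At day 7 it was at 93.7, 80.8 and 70.9 FPKM, and in WT and KO iPSC at 142 and 211 FPKM. The KI libraries, which held almost no Pou5f1 RNA, shared this rise. Cox6b2 was also the one member called between KO and WT at MEF and day 0, with 35.0 and 22.0 FPKM in KO against 15.99 and 7.51 FPKM in WT. The difference was 1.26 ± 0.15 (log2, SE, limma adjusted p = 0.0478), in a comparison added after the data were seen. Of all genes, 0.0145% were called higher there.

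**Figure D2:**
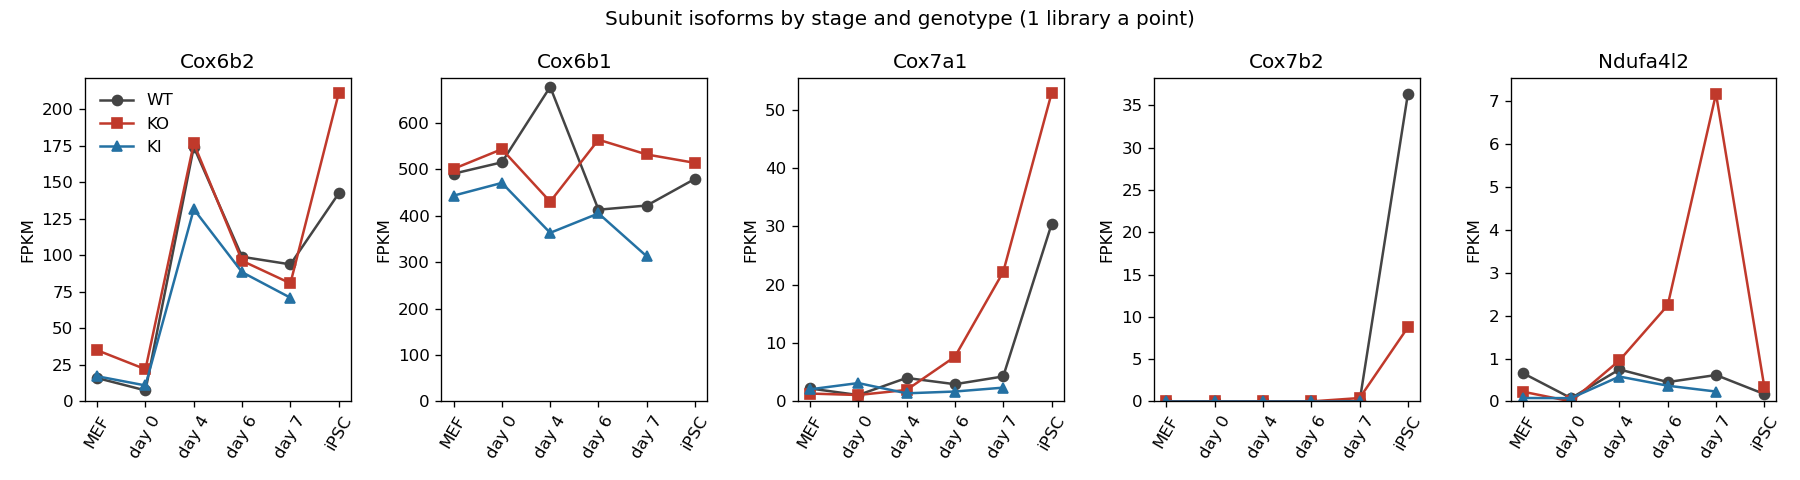
FPKM (vertical axis, linear from 0) by stage (horizontal axis) for Cox6b2, its somatic counterpart Cox6b1, Cox7a1, Cox7b2 and Ndufa4l2; each point is 1 library, coloured by genotype. Cox6b2 rises in all 3 genotypes at day 4, Cox7b2 appears in the iPSC libraries, and Cox7a1 and Ndufa4l2 reach 22.2 and 7.17 FPKM in KO at day 7.

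The WT library of day 4 held more subunit RNA than any other library before iPSC. The members took 2.98% of all FPKM there, against 2.17% in KO and 1.80% in KI at the same day and 2.05% in WT at day 6. At day 4, 70 of the 78 tested members were highest in WT, as were 41.1% of all genes. Ndufv1, the flavoprotein that accepts electrons from NADH, was at 156 FPKM in WT, 60.8 in KO and 41.9 in KI. Atp5e was at 973, 424 and 369 FPKM.

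The following features of that library moved with the high values. Genes with short transcripts were high in it as a class: relative to the mean of WT days 0 and 6, the median of genes that are not members was 0.57 (log2) for transcripts of 700 to 1000 bases and 0.04 for those of 2000 bases or more. The members exceeded this at 4 of 5 lengths, with medians of 0.81 for the same short class (15 members) and 0.57 for 8 members of 2000 bases or more, while those of 500 to 700 bases (24 members) stood at 0.50, against 0.55 for other genes. The same medians for KO and KI at day 4 lay at or below 0 in every length class. The 13 subunits encoded by mitochondrial DNA went the other way: their summed level was 3704 FPKM in WT day 4 and 12522 to 15486 FPKM in the other libraries before iPSC, with mt-Nd1 at 767 FPKM against 4296 in KO and 3840 in KI at day 4. The part of transcript length and of the mixed sex-linked RNA in the high subunit levels was not tested.

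**Figure D3:**
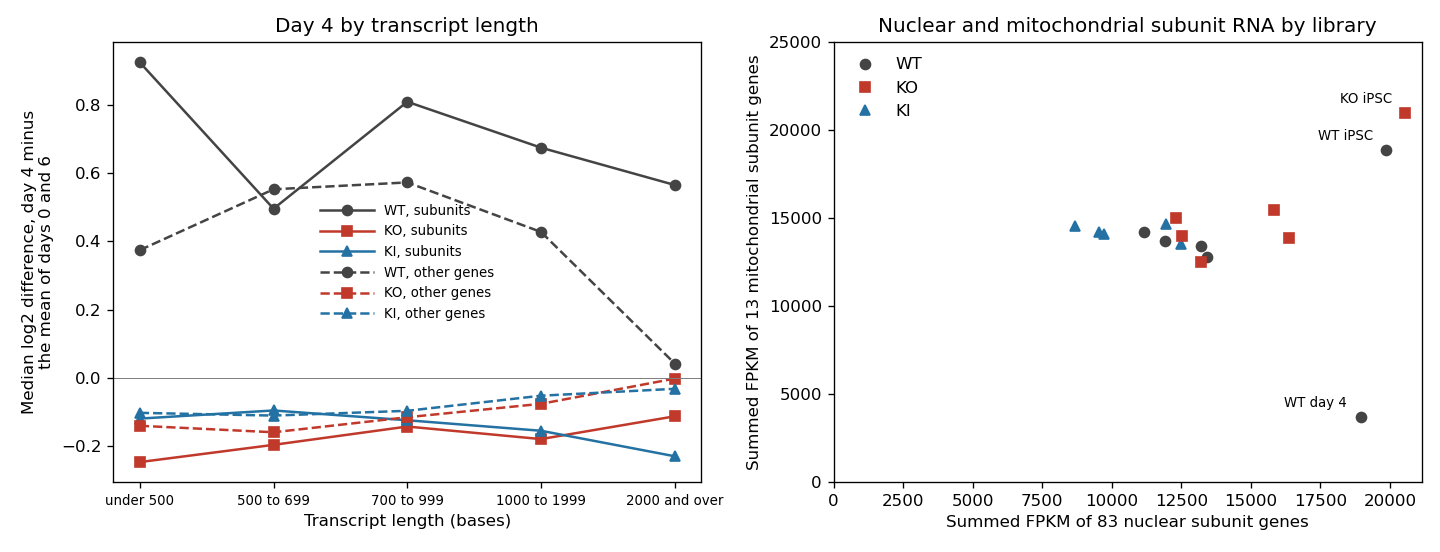
Left, median log2 difference of day 4 from the mean of days 0 and 6 (vertical axis) by transcript length (horizontal axis), for subunits (solid) and other genes (dashed) in each genotype. Right, summed FPKM of the 13 mitochondrial subunit genes against that of the 83 nuclear ones, 1 point a library; the WT day 4 library pairs 18946 FPKM of nuclear with 3704 FPKM of mitochondrial subunit RNA.

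From day 4 to day 7 no member was called over the 3 genotypes together, where 0.0211% of all genes were. An unadjusted p below the threshold was seen in 2 of 78 members and in 1025 of 14240 genes. Behind this lay courses that parted by genotype. Against MEF of the same genotype, the median member stood at 0.32 and 0.36 (log2) in KO at days 6 and 7, at -0.22 and -0.11 in WT, and at -0.30 and -0.47 in KI, where the medians of all genes were 0.14 and 0.19, -0.06 and -0.05, and -0.15 and -0.22. The members' share of all FPKM reached 2.52% and 2.58% in KO at days 6 and 7, against 2.05% and 2.12% in WT and 1.87% and 1.70% in KI. KO was highest in 73 of 78 members at day 6 and in 71 at day 7, as it was in 55.1% and 59.1% of all genes. KI was lowest in 71, 68 and 76 members at days 4, 6 and 7, as it was in 48.3%, 47.3% and 54.5% of all genes.

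**Figure D4:**
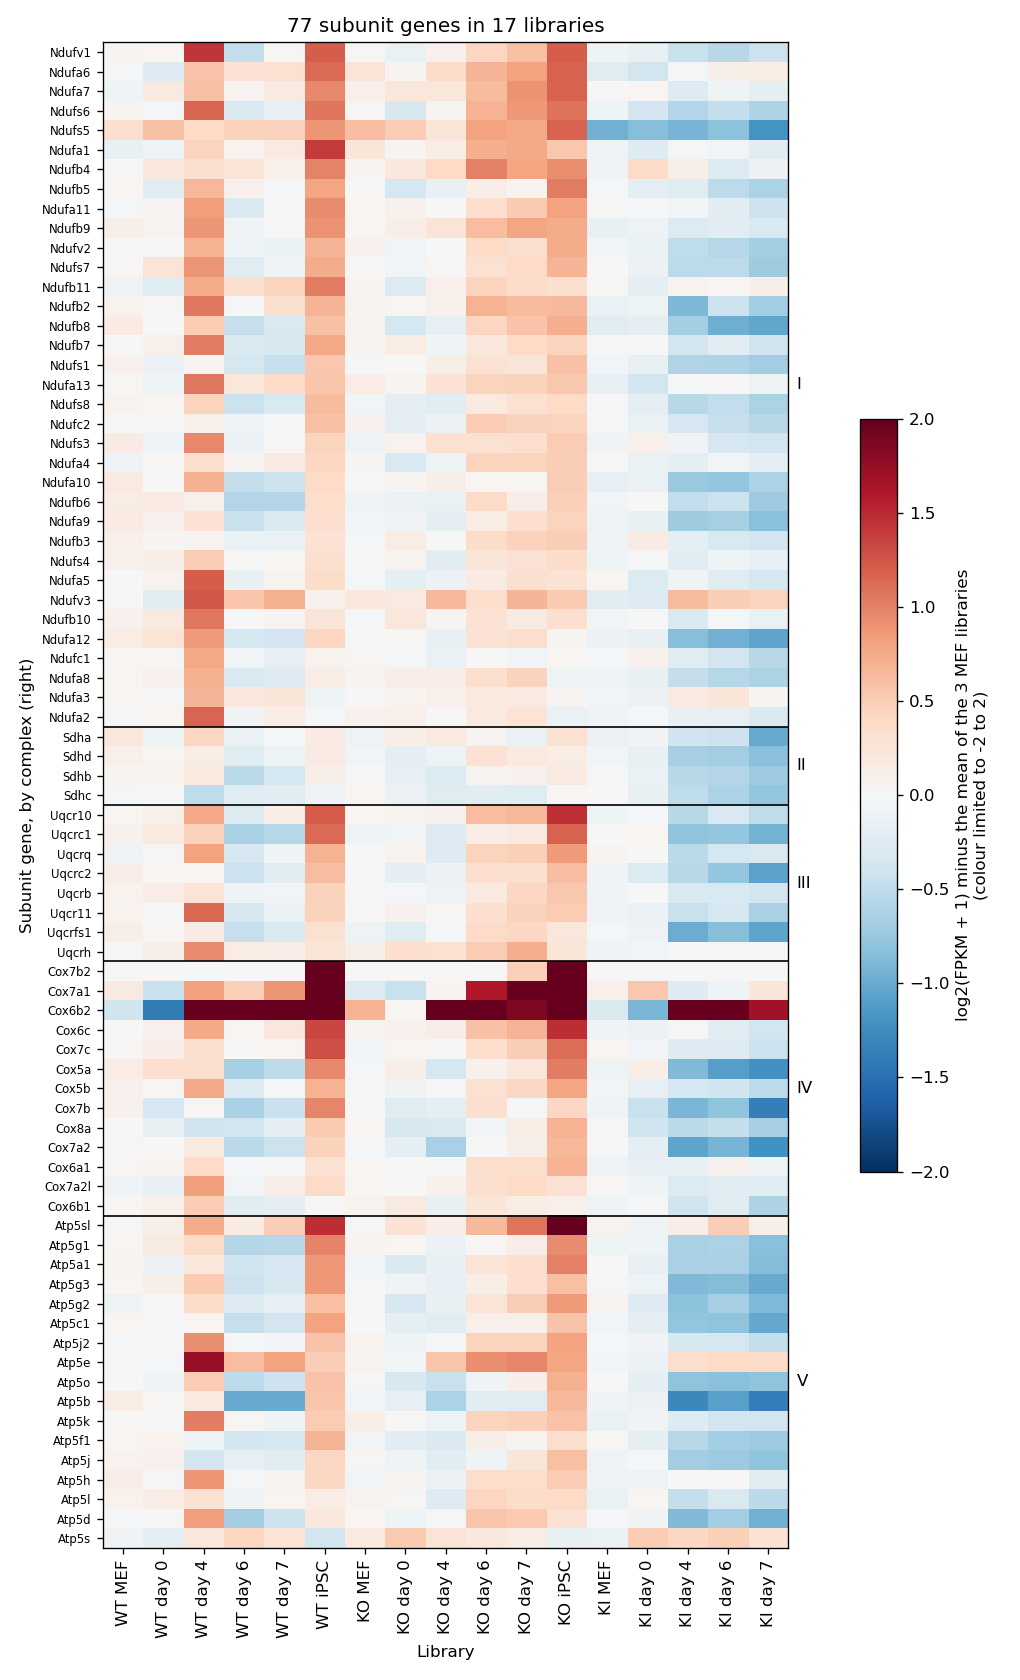
Each row is 1 of 77 tested subunit genes, grouped by complex, and each column 1 library; colour gives log2(FPKM + 1) minus the mean of the 3 MEF libraries, limited to -2 to 2. The WT day 4, KO day 6 and day 7 and both iPSC columns are mostly above 0, and the KI columns of days 4 to 7 mostly below.

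Over days 4 to 7, the difference between KO and WT was small and no member was called. The fit was limma with stage, genotype and genotype by late stage over 15 libraries and 13837 genes. In either direction 0 of 77 members passed, where 9.5% of all genes were called higher and 5.23% lower. An unadjusted p below the threshold was seen in 4 of 77 members, all higher, and in 4794 of 13837 genes, 3298 of them higher. By day, the members' median of KO minus WT was -0.64 (log2) at day 4, 0.52 at day 6 and 0.48 at day 7. For all genes it was 0, 0.19 and 0.26. Over these days together, the members' median difference was 0.12 (log2) and that of all genes 0.17. With median centring of the libraries the members' median became -0.11, so its direction depends on the scaling. The WT library of day 4 decided the number called: without it, 39 of 77 members were called higher, where 31.4% of all genes were. No library repeats a genotype at a stage, so the error here is the spread of the genotype difference between stages.

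At days 6 and 7, a comparison added after the data were seen and fitted without the day 4 libraries, most subunits were higher in KO than in WT. Of 78 members, 61 were called higher and 0 lower, against 39.3% and 16.8% of 13738 genes; the members' median was 0.51 (log2) and that of all genes 0.24. All 8 genes of complex III, 11 of 12 of complex IV, 14 of 17 of complex V and 26 of 37 of complex I were called, but 2 of 4 of complex II. Without Ndufa4l2, which entered this fit only through its KO values, the counts were 60 of 77 and, in complex I, 25 of 36. With median centring, which sets the genotypes on a common median, 26 of 78 members were called higher and 7 lower, 24.8% of all genes were called higher and 27.8% lower, and the members' median was 0.17, with that of all genes moved from 0.24 to -0.03. By complex, 15 of 37 were then called higher in complex I, 4 of 8 in complex III, 2 of 12 in complex IV and 5 of 17 in complex V. None was in complex II. Of the 7 called lower, 5 were in complex I, 1 in complex II (Sdhc) and 1 in complex IV.

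Individual members show how far the days 6 and 7 libraries were apart. Uqcrc1, a core protein of complex III, was at 64.4 and 68.2 FPKM in WT, 112 and 115 FPKM in KO and 59.3 and 52.5 FPKM in KI. Both KO values lay above the WT and KI values of these days, a difference from WT of 0.77 ± 0.08 (log2, SE; limma adjusted p = 0.000694). Uqcrfs1, the Rieske iron-sulfur protein that passes electrons on within complex III, was at 55.9 and 63.2 FPKM in WT against 101 and 104 FPKM in KO (0.77 ± 0.10). Atp5d, the delta subunit of the central stalk of the ATP synthase, was at 129 and 155 FPKM in WT and 302 and 297 FPKM in KO (1.08 ± 0.13, limma adjusted p = 0.00105). Atp5b went from 533 FPKM in WT on both days to 917 and 925 FPKM in KO (0.79 ± 0.09), and Atp5a1, the alpha subunit, differed by 0.67 ± 0.09. Cox5a, a matrix-side subunit of complex IV, differed by 0.74 ± 0.08 and Cox5b by 0.50 ± 0.09. In complex I, Ndufs6, an accessory subunit, was at 51.0 and 55.4 FPKM in WT and 102 and 114 FPKM in KO (1.01 ± 0.10, limma adjusted p = 0.000681), while the core electron carriers Ndufv1 (0.74 ± 0.11) and Ndufs1 (0.69 ± 0.08) were also called. Ndufb8 (0.88 ± 0.12) and, in complex III, Uqcr10 (0.72 ± 0.13) were among the others. All genes named in this paragraph were called by limma, with adjusted p from 0.000681 to 0.00564.

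Complex II differed from this picture by single genes. Sdhb, the iron-sulfur subunit, and Sdhd, a membrane anchor, were called higher in KO at days 6 and 7 (0.51 ± 0.09 and 0.41 ± 0.08). Sdha, the flavoprotein that oxidises succinate, was at 149 and 160 FPKM in WT and 169 and 148 FPKM in KO (0.04 ± 0.19, limma adjusted p = 0.897), and Sdhc, the other anchor, at 248 and 252 FPKM against 252 and 249 FPKM. Those values overlap between the genotypes. Whether complex II as a group differs from the other complexes was not tested.

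The isoforms Cox7a1 and Ndufa4l2 had the largest differences. Cox7a1 was at 2.95 and 4.28 FPKM in WT, 7.66 and 22.2 FPKM in KO and 1.69 and 2.36 FPKM in KI at days 6 and 7 (KO minus WT 1.63 ± 0.35, limma adjusted p = 0.00897). Ndufa4l2 was at 0.451 and 0.615 FPKM in WT, 2.24 and 7.17 FPKM in KO and 0.366 and 0.23 FPKM in KI. It passed the expression filter of that fit only through the 2 KO values, so it had to differ and its difference of 1.75 (log2) is a description, not a test. It fell back to 0.171 and 0.338 FPKM in WT and KO iPSC. Of 7 genes of striated muscle and brown fat in the table, where Cox7a1 is the usual isoform, the summed level was 1.24 and 3.32 FPKM in KO, 0.12 and 0.238 FPKM in WT at days 6 and 7, and 0.895 and 1.55 FPKM in WT and KO iPSC. Of the 2 tested, Tnnt2 was called higher in KO (0.77 ± 0.26 log2, SE, limma adjusted p = 0.0451), at 0.656 and 0.977 FPKM, where 39.3% of all genes were. With median centring Tnnt2 was not called. Myog and Actc1 were at 0 in KO at both days. The part of such cells in the Cox7a1 values was not tested.

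Cell makeup moved with the KO differences. The summed level of 10 macrophage markers (Lyz2, C1qa, Tyrobp and others) was 3415 and 4123 FPKM in WT at days 6 and 7, 73.8 and 117 FPKM in KO and 2192 and 2121 FPKM in KI. Of these, 9 of 10 were called lower in KO than in WT, where 16.8% of all genes were, with none listed at 0 in KO on those days. The 6 fibroblast markers summed to 20291 and 18225 FPKM in WT, 7411 and 4499 FPKM in KO and 21844 and 23248 FPKM in KI. Of these 6, 4 were called lower and 1 (Thy1) higher in KO than in WT, where 16.8% and 39.3% of all genes were. With median centring Thy1 was not called. The 6 pluripotency markers summed to 42.6 and 131 FPKM in WT, 1003 and 1534 FPKM in KO and 0.946 and 1.34 FPKM in KI. Utf1 was at 0 in KI and in WT at day 6. The 5 tested were all called higher in KO than in WT, where 39.3% of all genes were. In each MEF and day 0 library the 6 summed to at most 2.64 FPKM. Those other than Pou5f1 may thus have passed the filter mainly through the KO values, so their calls are a description, not a test. The part of these cell types in the subunit differences was not tested.

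Between KI and WT over days 4 to 7 the one member called was Ndufs5, whose level is uncertain for the reason given with its values. These libraries, as given above, held almost no Pou5f1 RNA, so a difference between KI and WT cannot be told apart from a difference in induction of OSKM. The median difference was -0.55 (log2) for members and -0.16 for all genes, where at MEF and day 0 it was -0.13 and -0.015. Of 77 members 1 was called lower, where 1.71% of all genes were. At an unadjusted p below the threshold 44 members were lower and 0 higher, where 3507 of 13837 genes passed, 776 of them higher. The KO and KI comparisons share the WT libraries. At days 6 and 7 alone, 28 of 78 members were called lower, where 14.1% of all genes were, and with median centring 11, where 6.38% were. Leaving out day 6 as well left 4 called (1.5% of all genes), leaving out day 7 left 0 (0.357%), and leaving out the WT MEF library left 18 (9.78%). At those days the median was -0.31 for members and -0.15 for all genes. By complex, 11 of 37 were called in complex I, 2 of 4 in complex II, 2 of 8 in complex III, 4 of 12 in complex IV and 9 of 17 in complex V.

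Among the named genes of KI at days 6 and 7, Sdhd was at 69.6 and 62.8 FPKM against 95.9 and 105 FPKM in WT (-0.59 ± 0.08 log2, limma adjusted p = 0.0132), and Sdhc differed by -0.47 ± 0.08. Cox5a was at 92.9 and 85.8 FPKM against 127 and 139 FPKM in WT (-0.56 ± 0.08, limma adjusted p = 0.0143). Atp5g3, which encodes the proton-carrying c subunit, was at 226 and 204 FPKM against 307 and 329 FPKM (-0.56 ± 0.10), and Atp5j, a subunit of the peripheral stalk, at 325 and 307 FPKM against 481 and 464 FPKM (-0.58 ± 0.11). In complex III Uqcrc2 and Uqcrfs1 differed by -0.59 ± 0.12 and -0.58 ± 0.10, in complex IV Cox7a2 and Cox6c by -0.59 ± 0.11 and -0.43 ± 0.10, in complex V Atp5c1 by -0.50 ± 0.09, and in complex I Ndufb2 by -0.70 ± 0.14 and Ndufa12 by -0.65 ± 0.07. Each of these KI values lay below both WT values of those days. Of the 6 members with the miR-203 seed letters printed above, Ndufb2, Ndufb8, Sdhd, Atp5g3 and Atp5j were called lower and Ndufv1 was not (-0.26 ± 0.11), where 28 of 78 members and 14.1% of all genes were called lower and 0 to 4 members when day 6 or day 7 was left out. Whether members with these letters differ from those without was not tested. The interaction of genotype with late stage called no member for KO or for KI, where 0.0795% and 0.0723% of all genes were called. At an unadjusted p below the threshold were 4 of 77 members for KO and 2 of 77 for KI, against 3084 and 1146 of 13837 genes.

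Ndufs5, an accessory subunit of complex I (chr4:123712710-123718202 on GRCm38, minus strand), was low in KI at every stage. It was at 26.6, 28.8, 27.2, 29.2 and 22.4 FPKM in KI from MEF to day 7. The other 12 libraries lay between 62.4 and 120 FPKM, so the groups did not overlap. KI minus WT was -1.42 ± 0.16 (log2, SE, limma adjusted p = 0.00747) at days 4 to 7. At MEF and day 0 it was -1.37 ± 0.20 (limma adjusted p = 0.0387), where 0.145% of all genes were called lower. A processed pseudogene on another chromosome, BC002163 (chr16:42955631-42955949), matches the transcript at 99.4% over 319 bases. It was listed at 19.9, 17.4, 17.05, 22.1 and 18.6 FPKM in KI from MEF to day 7, at 0 in all KO libraries, and in WT at 0 in MEF and day 0, 7.83, 0.313 and 1.89 FPKM at days 4, 6 and 7 and 14.8 FPKM in iPSC. Reads of the gene and of this copy cannot be told apart over nearly all of its length, so the level of Ndufs5 is uncertain.

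**Figure D5:**
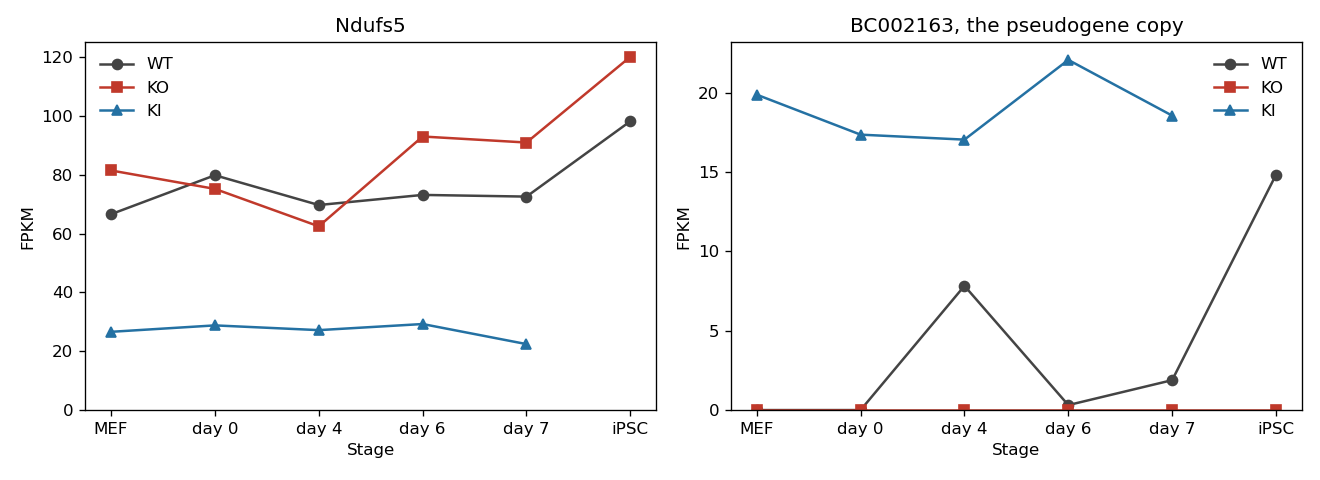
FPKM (vertical axes, linear from 0) of Ndufs5 (left) and of its processed pseudogene copy BC002163 (right) by stage; each point is 1 library, coloured by genotype. The 5 KI libraries sit at 22.4 to 29.2 FPKM for Ndufs5, below all others, and at 17.05 to 22.1 FPKM for the copy, above all others.

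Near-identical copies or overlapping transcripts (at least 98% over 200 bases) were found for 19 members, 22 in all, and 9 of them reach 1 FPKM. A copy of Ndufa12, Gm15920, was listed at 6.13 to 26.2 FPKM in WT and KO and at 0 to 0.319 FPKM in KI, and a copy of Cox7a2l, Gm6969, at 14.2 to 22.9 FPKM in KI at days 0 to 7 and under 1 FPKM in the others. The calls on Ndufa12 and Cox7a2l in KI are therefore uncertain as well. Ndufa12 itself was at 34.0 and 31.9 FPKM in KI and 52.6 and 51.6 FPKM in WT at days 6 and 7.

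In iPSC the subunits were higher than at day 7 or in MEF, most of all in complex IV. From day 7 to iPSC 26 of 78 members were called higher and 0 lower, against 25.6% and 24.1% of all genes, so that the share called higher was near that of all genes and the share called lower was not. The median change was 0.60 (log2) for members and 0.11 for all genes. By complex it was 0.98 in complex IV (9 of 13 called), 0.74 in complex V (8 of 17), 0.53 in complex III (3 of 8), 0.49 in complex I (6 of 36) and 0.35 in complex II (0 of 4). From MEF to iPSC 19 of 78 were called higher, where 20.5% of all genes were: 8 in complex I, 2 in complex III, 6 in complex IV, 3 in complex V and 0 in complex II. Both complex IV counts and both totals include Cox7b2, which passed the filter through its iPSC values alone and so had to differ. Cox7b2 also enters the complex IV median. Without the WT library of day 4, the counts were 39 (28.1% of all genes) and 30 (22.2%). Without the WT libraries they were 0 (5.33% of all genes) and 3 (6.74%). Without the KO libraries they were 26 (28.4%) and 10 (15.2%), and without the KI libraries 7 (13.5%) and 11 (17.1%). With WT MEF, WT day 4 and WT iPSC all left out they were 8 (10.9%) and 7 (10.3%). The share of all genes called rose with that of the members without the WT library of day 4. In the other fits both shares fell, except in the day 7 comparison without KO, where the members' count stayed at 26.

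The members' median change from MEF was 0.52 in WT iPSC and 0.57 in KO iPSC, and their share of all FPKM 2.88% and 2.98%. Uqcrc1 was at 224 and 231 FPKM in WT and KO iPSC, against 68.2, 115 and 52.5 FPKM in WT, KO and KI at day 7 and 108, 95.2 and 102 FPKM in MEF. Both iPSC values were above every earlier library, with 1.45 ± 0.34 (log2, SE; limma adjusted p = 0.00526) from day 7 and 1.01 ± 0.34 from MEF (limma adjusted p = 0.0335). Uqcrc2, the other core protein, changed by 0.77 ± 0.28 from day 7 (limma adjusted p = 0.0425). Cox5a was at 391.8 and 411 FPKM against 139, 233 and 85.8 FPKM at day 7 (1.31 ± 0.34, limma adjusted p = 0.00948) and 222, 195 and 186 FPKM in MEF. Atp5b was at 1566 and 1671 FPKM against 533, 925 and 416 FPKM (1.29 ± 0.36, limma adjusted p = 0.0127). From MEF its change of 0.43 ± 0.36 was not called (limma adjusted p = 0.363). Atp5a1 changed by 1.09 ± 0.29 from day 7 and 0.80 ± 0.29 from MEF, and both were called, as were Atp5g1, another c subunit gene (1.25 ± 0.26 and 0.83 ± 0.26), Uqcr10 (1.06 ± 0.32 and 1.16 ± 0.32), Cox8a (0.77 ± 0.17 and 0.53 ± 0.17) and Atp5sl (1.15 ± 0.27 and 1.71 ± 0.27).

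In complex I, 8 of 36 genes were called higher in iPSC than in MEF and 6 than at day 7. Ndufa6, an accessory subunit, was at 74.3, 90.1 and 63.8 FPKM in WT, KO and KI MEF and 166 and 172 FPKM in iPSC, a change of 1.03 ± 0.16 (log2, SE; limma adjusted p = 0.000393). Ndufa7 (0.94 ± 0.25) and Ndufb4 (0.85 ± 0.27) were also called. From day 7, Ndufb5 (1.00 ± 0.25), Ndufa11 (0.74 ± 0.28) and Ndufs1 (0.72 ± 0.23) were called. Ndufb5 shares 216 bases with the neighbouring transcript Mrpl47, which was also at its highest in iPSC (31.3 and 40.3 FPKM). Ndufv1 stood at 135 FPKM in both iPSC libraries against 59.9, 58.3 and 54.0 FPKM in MEF, but the spread left it uncalled (1.04 ± 0.41, limma adjusted p = 0.0636).

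Complex II showed little difference between MEF and iPSC. Sdha was at 189, 152 and 151 FPKM in WT, KO and KI MEF and at 184 and 202 FPKM in WT and KO iPSC (0.09 ± 0.22 log2, SE). Sdhb (70.8, 67.1 and 66.5 FPKM, then 74.1 and 77.6 FPKM), Sdhc (287, 302 and 295 FPKM, then 281 and 304 FPKM) and Sdhd (121, 109 and 109 FPKM, then 127 and 125 FPKM) changed by 0.05 ± 0.23, -0.09 ± 0.16 and 0.00 ± 0.25. The MEF and iPSC values overlap for Sdha and Sdhc, while both iPSC values lie just above the MEF ones for Sdhb and Sdhd, and none was called. Uqcrfs1 was at 95.6 and 91.0 FPKM in iPSC against 84.3, 71.8 and 76.3 FPKM in MEF (0.07 ± 0.35, not called). Cox6b1 was at 480 and 514 FPKM against 491, 501 and 443 FPKM (-0.06 ± 0.23, not called). Cox5b was at 199 and 213 FPKM in iPSC and 130, 121 and 119 FPKM in MEF without passing the test (0.60 ± 0.27, limma adjusted p = 0.102).

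Complex IV isoforms were the most stage-specific members. Cox7b2 was listed at 0 in 14 of 15 libraries before iPSC, at 0.398 FPKM in KO day 7, and at 36.4 and 8.76 FPKM in WT and KO iPSC, where its somatic counterpart Cox7b was at 1221 and 823 FPKM. Its change from day 7 was 4.08 ± 0.44 on the log2(FPKM + 1) scale (limma adjusted p = 4.3e-05); a gene that passed the filter through iPSC alone had to differ. Cox7a1 rose to 30.3 and 52.8 FPKM, from 4.28, 22.2 and 2.36 FPKM at day 7 (2.31 ± 0.69, limma adjusted p = 0.0179; 3.69 ± 0.69 from MEF), and was 9.25% and 13.4% of the FPKM of Cox7a1 and Cox7a2 together. Cox6b2 changed by 0.98 ± 0.32 from day 7 and 2.86 ± 0.32 from MEF (limma adjusted p = 0.0251 and 3.89e-05). Cox6a1, the somatic partner of Cox6a2, was at 457 and 601 FPKM in iPSC and 378, 382 and 355 FPKM in MEF. Ndufa4, the partner of Ndufa4l2, was at 588 and 621 FPKM. Of the c subunit genes, Atp5g2 was at 232 and 277 FPKM and Atp5g3 at 755 and 622 FPKM. Cox7a2l, a supercomplex factor, stayed at 143 and 134 FPKM against 105, 113 and 111 FPKM in MEF.

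The 3 X-linked members were all higher in the WT than in the KO iPSC library. Ndufa1 was at 225 FPKM in WT and 124 in KO iPSC, Ndufb11 at 39.9 and 23.9 FPKM, and Cox7b at 1221 and 823 FPKM. The median of WT minus KO was 0.71 (log2) for these and -0.07 for the other 75 tested members. All 441 tested X-linked genes had a median of 0.61, with 82.99% higher in WT, and the autosomal genes a median of 0. Ddx3y was at 1.51 FPKM in WT iPSC and 17.3 FPKM in KO iPSC, and Xist at 1.31 and 0.188 FPKM. With 1 library a genotype, genotype and sex of the cells cannot be told apart here.

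Other genes of the pathway, from lists written for the series, changed in iPSC as follows. From day 7 to iPSC, where 25.6% of all genes were called higher, 10 of 14 regulators of mitochondrial biogenesis were called higher, among them Tfam, the mitochondrial DNA packaging factor (1.53 ± 0.35 log2, SE), and Nrf1 (1.96 ± 0.55). Of 76 genes of the mitochondrial ribosome 34 were called higher and 1 lower, of 41 assembly factors 15 higher and 1 (Cox20) lower, and of 16 genes of the citrate cycle and pyruvate dehydrogenase 9 higher, among them citrate synthase Cs (0.83 ± 0.22) and Pdhb (1.21 ± 0.29). The list medians were 0.87, 0.82, 0.57 and 0.79. Cyc1, the cytochrome c1 of complex III that the name rule does not catch, changed by 1.53 ± 0.34 and was the 1 of 5 tested such subunits called. From MEF to iPSC 20.5% of all genes were called higher. The counts higher were 6 of 14 regulators, 17 of 76 ribosomal genes, 12 of 41 assembly factors and 2 of 16 citrate cycle genes. Of the lists, 1 ribosomal gene and 4 assembly factors were lower, as were 3042 of 14240 genes. The list medians from MEF were 0.80, 0.63, 0.43 and 0.29. Between KO and WT at days 6 and 7, where 39.3% of all genes were called higher, 12 of 14 regulators, 69 of 76 ribosomal genes, 25 of 41 assembly factors and 14 of 16 citrate cycle genes were called higher and none lower. With median centring (24.8% of all genes) the counts higher were 6, 45, 11 and 6, and 5 assembly factors were lower. Between KI and WT, where 14.1% of all genes were called lower, 3, 30, 4 and 6 were lower and 1 assembly factor, Lyrm7, was higher. With median centring (6.38%) the counts lower were 1, 5, 1 and 1. All 5 subunits outside the name rule were called higher in KO and 2 (Cyc1 and Cycs) lower in KI.

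The subunits encoded by mitochondrial DNA did not share these calls. Of the 13 genes, 6 (among them mt-Co2 and mt-Atp6) were listed at 0 in every library and 7 were tested. None was called from day 7 to iPSC, although their summed level was 18882 and 21013 FPKM in WT and KO iPSC against 13705, 13897 and 14575 FPKM in WT, KO and KI at day 7. The median change of the 7 tested was 0.63 (log2), near the 0.60 of the members. That fit included the WT library of day 4, where their level was low. At days 6 and 7, mt-Nd1 was called higher in KO (0.27 ± 0.07 log2, SE; limma adjusted p = 0.0164) and none was called in KI. With median centring none was called higher in KO and 4 of 7 were called lower, so the direction depends on the scaling.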

How the data were processed

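RNA-seq of 17 libraries was analysed from 1 deposited table of FPKM. The authors extracted RNA with miRVana and made stranded poly(A) libraries, per the labels' protocols. FPKM were made by the authors with Cufflinks 2.2.1 from TopHat2 2.0.10 alignments to GRCm38 (mm10), per the submitters' processing notes, which also name Bowtie 1.0.0 and SAMtools 0.1.16. Which annotation was used, and whether libraries were rescaled, is not stated there. Rows with a repeated identifier (41 rows, 19 identifiers) were summed, which left 38734 genes. FPKM holds no read counts, so no counting interval can be given. The sum of FPKM per library was 510501 to 690770.

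Genes with a mean of at least 1 FPKM over the libraries of a fit were tested as log2(FPKM + 1) with limma 3.58.1 in R 4.3.3 (variance trend, Benjamini-Hochberg over all genes tested, called at an adjusted p below 0.05). Folds on this scale understate the change of low genes. Stages were fitted over 17 libraries with genotype as a term, genotypes over the 15 libraries before iPSC. The comparisons at days 6 and 7 and at MEF and day 0, and the fits without the WT library of day 4, were added after the data were seen. The fits were tested on simulated data. Each genotype has 1 library a stage, so p-values measure the spread between these samples only, which may be technical. Alternatives were the pseudocount (0.1), the filter (none, or 5 FPKM), quantile, upper-quartile and median scaling, no genotype term, and leaving out genotypes, days or doubtful libraries.

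Members and lists were chosen with earlier results of these data known. Named genes were the core and isoform subunits listed by name and, per comparison and complex, the 3 called members with the largest change; 1 gene that this rule names is not reported here, though it enters the counts. Copies were sought with blastn 2.17.0 in GENCODE M21 transcripts; promoters and miR-203 came from RefSeq (GRCm38.p6). Tables were handled with Python 3.11.15 and pandas 2.3.3, and figures drawn with matplotlib 3.10.9.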

Additional observations from a re-analysis of the deposited data

Results flagged for a closer look

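The members' median change from MEF (log2, 1 library each) had opposite signs between genotypes at days 6 and 7. In KO it was 0.316 at day 6 and 0.363 at day 7. In KI it was -0.297 and -0.469, and in WT -0.22 and -0.109. The medians of all genes had the same signs, with 0.139 and 0.189 in KO, -0.145 and -0.219 in KI and -0.0571 and -0.0493 in WT. The difference between these medians was not tested, since each value comes from 1 library.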

How the results depend on the processing

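No paired analysis was possible because each genotype has 1 library at each stage and the labels give no replicate numbers to pair by. Over the counts of called members, 89 of 127 alternative settings stayed within 1.5 times the main count and 38 did not. Of 629 settings for 58 single-gene results, 497 kept direction and call, 132 lost the call and 0 reversed. From day 0 to day 4 the count of 5 became 3 without a filter, 3 without the genotype term, 2 without the late KI libraries, 2 with WT MEF, WT day 4 and WT iPSC all left out, and 1 to 3 when 1 genotype was left out. From day 7 to iPSC the count of 26 became 14 without the late KI libraries, 8 without those 3 WT libraries, and 0 to 26 when 1 genotype was left out. From MEF to iPSC the count of 19 became 7 without those WT libraries, 30 without WT day 4, and 3 to 11 when 1 genotype was left out. For KO against WT at days 4 to 7 the count of 0 became 2 (both lower) under quantile, upper-quartile and median scaling, 26 without WT MEF and day 4, 39 without WT day 4, and 0 to 61 when 1 day was left out; its change from early to late stages went from 0 to 2 (both lower) without WT MEF and day 4, 18 (17 higher) without WT day 4, and 0 to 51 (50 of these higher) when 1 day was left out. For KI at days 4 to 7 the count of 1 became 2 with a pseudocount of 0.1 or quantile scaling, and 0 to 28 when 1 day was left out. At days 6 and 7 the KO count of 61 (all higher) became 40 with upper-quartile (34 higher, 6 lower) and 33 with median scaling (26 higher, 7 lower), and 42 to 50 when 1 day was left out; the KI count of 28 became 18 with quantile, 15 with upper-quartile and 11 with median scaling, 18 without WT MEF, and 0 to 4 when 1 day was left out. The cause of these moves was not tested.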
